A study of Mus musculus with 12 samples.

Results

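Integrins are cell surface receptors made of 1 α and 1 β subunit that bind matrix proteins or counter-receptors on other cells outside the cell and, through their cytoplasmic tails, talin, kindlin and the actin cytoskeleton inside it. The β1 subunit pairs with many α subunits, β4 pairs with α6 in hemidesmosomes, and αv pairs with β1, β3 or β5 to bind RGD-type ligands such as osteopontin and tenascin. In mammary epithelium α6 (CD49f) and β3 (CD61) serve as surface markers of stem and progenitor cells, and both are among the markers by which the study followed cancer stem-like cells. The genes described are 10 integrin subunits chosen by symbol, the α subunits *Itga2*, *Itga3*, *Itga5*, *Itga6* and *Itgav* and the β subunits *Itgb1*, *Itgb3*, *Itgb4*, *Itgb5* and *Itgb7*, out of 35521 genes with a quantified transcript. They were chosen with earlier results of these data known, so counts of differences among them cannot show an excess over all genes. All 10 passed the expression filter, which kept 12555 genes.

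RNA was sequenced from 4T1, a mouse mammary carcinoma line, in 3 groups with 4 libraries each. Parental 4T1 cells were cultured without other cells. Tu-Gr1+CD11b+–primed 4T1 (Tu-primed) and Spl-Gr1+CD11b+–primed 4T1 (Spl-primed) cells shared a Transwell for 48 hours with Gr1+ cells that magnetic columns had taken from the tumor or the spleen of BALB/c mice bearing 4T1 tumors. The labels put the isolation of Gr1+ cells at day 21 after injection whereas the study's methods give a later day, so the day is uncertain, and a membrane with 0.4 μm pores kept the 4T1 cells apart from the Gr1+ cells. No source states whether the 4 libraries of a group came from separate cocultures, so p-values measure the spread between these libraries, which may be technical. Library totals ranged from 24566183 to 31637755 estimated reads. Values are given as CPM, read counts relative to the TMM-scaled library size, as mean ± SD over 4 libraries. A gene is called when edgeR's quasi-likelihood test, fitted to all 12 libraries, gave a Benjamini-Hochberg adjusted p under 0.05 over the 12555 genes. Both primed groups were compared with the same 4 parental libraries, so the 2 comparisons with parental cells are not independent. All 10 genes on a list of mammary carcinoma markers were detected. Their summed levels were 1922 to 2359 CPM in Tu-primed, 2413 to 2604.5 CPM in Spl-primed and 2685 to 4003 CPM in parental libraries. Of 30 granulocyte and myeloid markers, 16 had at most 3 counts in every library and 10 of these, among them *Tyrobp*, *Ngp* and *Adgre1*, had 0 throughout. *Ltf* and *S100a8*, also on that list, were called higher in Tu-primed than in Spl-primed cells.

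Between the primed groups, *Itgb3* and *Itga2* were higher and *Itgb7* was lower in Tu-primed cells, and the other 7 subunits were not called. Over all genes tested, 4.66% were called higher and 2.97% lower in this comparison. Against parental cells, 2 of the 10 were higher in Tu-primed cells (*Itgb3* and *Itga2*, background 31.2%) and 3 were lower (*Itgb7*, *Itgb4* and *Itga3*, background 28.0%). In Spl-primed cells 1 was higher than in parental cells (*Itgb3*, background 25.7%) and 4 were lower (*Itgb7*, *Itgb4*, *Itga3* and *Itgb5*, background 22.5%). The median log2 fold change of the 10 genes was 0.07 between the primed groups, 0.02 for Tu-primed and -0.02 for Spl-primed against parental cells, beside -0.01, 0.02 and 0.02 over all genes tested. The libraries of the groups did not overlap for 4 of the 10 genes between the primed groups (background 17.0%), for 5 between Tu-primed and parental cells (55.5%) and for 4 between Spl-primed and parental cells (39.6%). In bulk RNA, a change in the share of cells that express a gene and a change in its RNA per cell cannot be told apart.

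**Figure D1:**
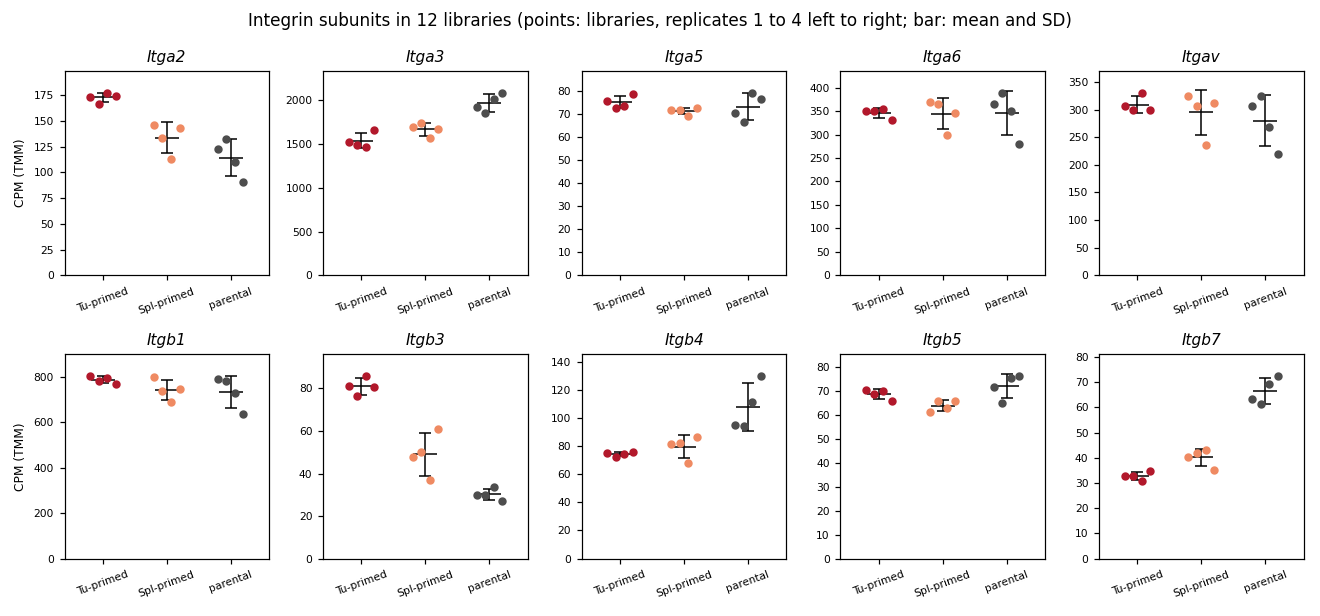
TMM-scaled CPM of the 10 integrin subunits, with 1 point per library (replicates 1 to 4 from left to right), and the mean and SD of each group of 4 libraries. *Itgb3* has 3 separate groups, *Itgb7* has them in the opposite order, and *Itga6* and *Itgb1* overlap in every pair of groups.

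**Figure D2:**
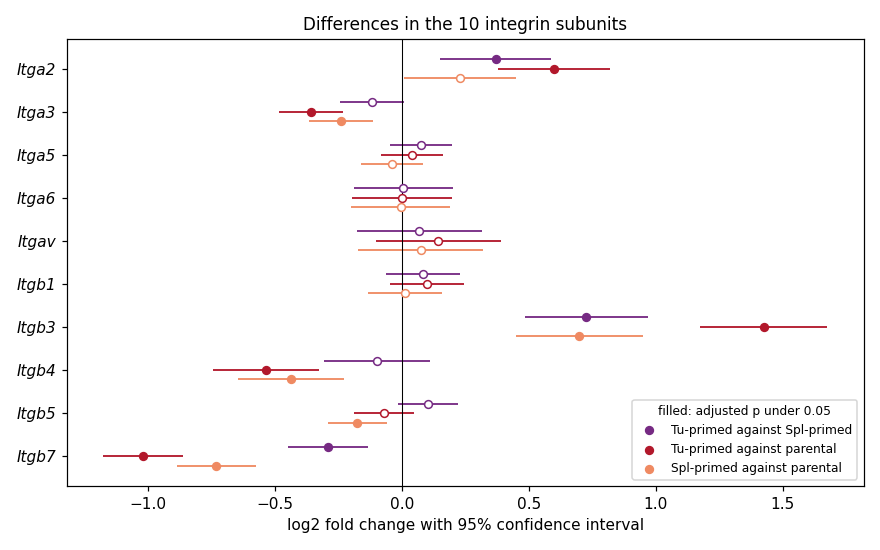
Log2 fold change (x axis) of each subunit (y axis) in the 3 comparisons, with the 95% confidence interval of edgeR's quasi-likelihood fit. Filled points have an adjusted p under 0.05, from 1.43 for *Itgb3* to -1.02 for *Itgb7*, both in Tu-primed against parental cells.

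*Itgb3*, which encodes the β3 subunit that forms the vitronectin receptor with αv, showed the largest difference of the 10 genes in each of the comparisons with Tu-primed cells. The gene (ENSMUSG00000020689) lies on the plus strand of chromosome 11 of GRCm38 from 104608000 to 104670476. The Tu-primed libraries had 81.3, 76.3, 85.9 and 80.7 CPM, the Spl-primed libraries 47.7, 49.98, 37.0 and 61.2 CPM, and the parental libraries 30.1, 30.1, 33.6 and 27.0 CPM. No library of one group reached into another, with every Tu-primed library highest and every parental library lowest. The fitted difference on the log2 scale was 1.43 (standard error 0.12, adjusted p = 5.34e-07) for Tu-primed against parental cells, a 2.69-fold difference, and 0.70 (standard error 0.12, adjusted p = 0.000308) for Spl-primed against parental cells. Between Tu-primed and Spl-primed cells it was 0.73 (standard error 0.11, adjusted p = 0.00104), or 1.66-fold. With each library left out in turn, this last difference stayed between 0.63 and 0.85. The reads behind these values ranged from 675 to 2458 per library, all on the single coding transcript that held reads.

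*Itga2* encodes α2, the collagen-binding partner of β1, and lies on the minus strand of chromosome 13 from 114833081 to 114932100 (ENSMUSG00000015533). It had 173, 167, 177 and 174 CPM in the Tu-primed libraries, 146, 133, 113 and 143 CPM in the Spl-primed libraries and 123, 132, 110 and 90.8 CPM in the parental libraries. The Tu-primed libraries lay close together above all others, whereas the Spl-primed and parental libraries overlapped. The fitted difference on the log2 scale was 0.60 (standard error 0.10, adjusted p = 0.000212) for Tu-primed and 0.23 (standard error 0.10, adjusted p = 0.0785) for Spl-primed against parental cells. The latter was called without Spl-primed replicate 3 (0.29, adjusted p = 0.0175), without parental replicate 2 (0.31, adjusted p = 0.0218) and with upper-quartile scaling, and it was 0.13 without parental replicate 4. Between the primed groups it was 0.37 (standard error 0.10, adjusted p = 0.0408). That call was close to the threshold, and it was lost without any 1 of the 4 Tu-primed libraries, of Spl-primed replicates 1 to 3 or of parental replicates 1 and 3, with log2 fold changes between 0.31 and 0.41 and an adjusted p of at most 0.115.

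*Itgb7* went the other way. It encodes β7, known mainly from lymphocytes, where it pairs with α4 or αE in homing to the gut, and lies on the minus strand of chromosome 15 from 102215995 to 102231944 (ENSMUSG00000001281). The Tu-primed libraries had 32.7, 32.9, 30.8 and 34.9 CPM, the Spl-primed libraries 40.4, 42.0, 43.1 and 35.2 CPM and the parental libraries 63.3, 61.2, 69.3 and 72.5 CPM. Parental libraries stood clearly above both primed groups, and the highest Tu-primed and lowest Spl-primed library nearly met. Relative to parental cells, the log2 fold change came to -1.02 (standard error 0.07, adjusted p = 2.07e-07) in Tu-primed and -0.73 (standard error 0.07, adjusted p = 5.27e-06) in Spl-primed cells, 2.03-fold and 1.66-fold lower. Between the primed groups it was -0.29 (standard error 0.07, adjusted p = 0.0263), which passed the threshold no longer without any 1 of Tu-primed replicates 1 to 3 or Spl-primed replicates 1 to 3 (log2 fold change between -0.35 and -0.24, adjusted p at most 0.100). Neither α partner was abundant. *Itga4* had between 6 and 29 reads per library and *Itgae* between 0 and 5. The 5 genes whose log2 CPM followed *Itgb7* most closely over the 12 libraries were *Rrp12*, *Nop9*, *Pabpc4*, *Cd3eap* and *Txnl4a*, with Pearson's r between 0.990 and 0.995. These values share the contrast between parental and primed libraries and are given as a description.

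*Itga3* encodes α3, the α subunit of the laminin receptor α3β1, and was the most abundant of the 10 genes. It lies on the minus strand of chromosome 11 from 95044474 to 95076801 (ENSMUSG00000001507). Levels were 1526, 1493, 1469 and 1663 CPM in the Tu-primed libraries, 1691, 1743, 1568 and 1668 CPM in the Spl-primed libraries and 1925, 1854, 2015 and 2086 CPM in the parental libraries. All parental libraries were above all primed libraries, and the primed groups overlapped. Relative to parental cells, the log2 fold change came to -0.36 (standard error 0.06, adjusted p = 0.000158) in Tu-primed and -0.24 (standard error 0.06, adjusted p = 0.00420) in Spl-primed cells. Between the primed groups it was -0.12, with a 95% confidence interval from -0.24 to 0.01.

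*Itgb4* encodes β4, the hemidesmosome subunit with a long cytoplasmic tail that binds plectin, and lies on the plus strand of chromosome 11 from 115974709 to 116008412 (ENSMUSG00000020758). It had 75.1, 72.7, 74.3 and 75.8 CPM in Tu-primed, 82.0, 82.6, 67.9 and 86.5 CPM in Spl-primed and 95.2, 94.6, 112 and 130 CPM in parental libraries. Again the parental libraries lay above all primed ones, with 2 of them set higher than the other 2. The fitted difference on the log2 scale was -0.54 (standard error 0.10, adjusted p = 0.000335) in Tu-primed and -0.44 (standard error 0.10, adjusted p = 0.00223) in Spl-primed cells, and -0.10 between them (95% confidence interval from -0.31 to 0.11). The gene of its partner α6 was not called. *Itga6* (ENSMUSG00000027111, chromosome 2, plus strand, from 71745616 to 71858416) had 346 ± 10.2, 345 ± 32.7 and 346 ± 47.4 CPM in Tu-primed, Spl-primed and parental cells, with overlapping libraries. Its log2 fold change was 0.00 in Tu-primed against parental cells, with a 95% confidence interval from -0.19 to 0.20, and -0.00 in Spl-primed cells, from -0.20 to 0.19. The ratio of *Itgb4* to *Itga6* in TPM, which also takes account of transcript length, was between 0.115 and 0.127 in Tu-primed, between 0.107 and 0.145 in Spl-primed and between 0.134 and 0.250 in parental libraries. In TPM the shift lay in *Itga6*, with means of 167, 165 and 123 in Tu-primed, Spl-primed and parental cells. Mean *Itgb4* was level at 20.2, 20.7 and 20.3 TPM, whereas in CPM *Itga6* was level and *Itgb4* was lower. A ratio within a library does not depend on the scaling between libraries, so it cannot tell which of the 2 genes differed.

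*Itgb1*, *Itgav* and *Itga5* were not called in any comparison. *Itgb1*, the common β subunit (ENSMUSG00000025809, chromosome 8, plus strand, from 128685654 to 128733200), had 788 ± 16.4, 743 ± 45.2 and 736 ± 69.9 CPM in Tu-primed, Spl-primed and parental cells. Relative to parental cells, its log2 fold change came to 0.10 (95% confidence interval from -0.05 to 0.25) in Tu-primed cells, which was called when only protein-coding transcripts were counted (adjusted p = 0.0372), and 0.01 (from -0.13 to 0.16) in Spl-primed cells. *Itgav* (ENSMUSG00000027087, chromosome 2, plus strand, from 83724397 to 83806916) had 309 ± 14.7, 295 ± 40.5 and 280 ± 46.6 CPM, with a log2 fold change of 0.14 (from -0.10 to 0.39) and 0.07 (from -0.17 to 0.32). *Itga5*, the fibronectin receptor α subunit (ENSMUSG00000000555, chromosome 15, minus strand, from 103344286 to 103366763), had 75.0 ± 2.52, 71.1 ± 1.44 and 73.0 ± 5.84 CPM. Its libraries in Tu-primed cells all lay just above those of Spl-primed cells, but the log2 fold change of 0.08 (from -0.05 to 0.20) was not called. With effective-length offsets in DESeq2 it was (adjusted p = 0.0320).

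*Itgb5*, whose product β5 also pairs with αv (ENSMUSG00000022817, chromosome 16, plus strand, from 33829665 to 33949338), had 70.3, 68.5, 69.7 and 65.6 CPM in Tu-primed, 61.3, 65.7, 62.7 and 65.6 CPM in Spl-primed and 71.5, 65.0, 75.3 and 76.2 CPM in parental libraries. The 3 groups overlapped. The gene was called lower in Spl-primed than in parental cells (log2 fold change -0.17, standard error 0.06, adjusted p = 0.0177). That call was lost without Spl-primed replicate 1, parental replicate 3 or parental replicate 4, with an adjusted p of at most 0.0665, and also with protein-coding transcripts only (-0.13, adjusted p = 0.0744) and with limma-trend on the authors' normalized values (adjusted p = 0.0721). In Tu-primed cells the log2 fold change was -0.07 (95% confidence interval from -0.19 to 0.05). Within single libraries the TPM of *Itgb3* over that of *Itgb5*, the other αv partner, was between 0.508 and 0.559 in Tu-primed, between 0.238 and 0.414 in Spl-primed and between 0.156 and 0.210 in parental cells. Exons of the antisense RNA *Gm13684* overlap those of *Itgav*, and exons of *B230344G16Rik* those of *Itgb4*, by up to 634 and 130 bases. Neither antisense gene was quantified, and whether strand was used in the quantification is not given in the sources used here.

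Levels per transcript length, in TPM, gave the same top of the order in all groups: *Itga3*, *Itgb1*, *Itga6* and *Itgav*. In Tu-primed cells these had 491 ± 33.2, 309 ± 10.2, 167 ± 5.35 and 70.1 ± 4.39 TPM, with no overlap between neighbors in the order. *Itga2* (39.1 ± 2.21 TPM) and *Itgb5* (37.7 ± 2.36 TPM) followed and overlapped, then *Itga5* and *Itgb7*. *Itgb4* (20.2 ± 0.461 TPM) and *Itgb3* (20.1 ± 1.38 TPM) came last and overlapped. In Spl-primed cells *Itgb3* was the lowest with 11.7 ± 2.81 TPM, below every *Itgb4* library, and *Itgb7*, *Itga2*, *Itga5* and *Itgb4* overlapped from each to the next. In parental cells *Itgb3* was again the lowest with 5.45 ± 0.838 TPM, and *Itgb7* came right after *Itgav* with 33.3 ± 2.82 TPM, overlapping *Itgav* and *Itgb5*. TPM and CPM did not always order the groups alike. *Itga6*, with equal mean CPM in these groups, had 123 ± 28.2 TPM in parental and 167 ± 5.35 TPM in Tu-primed cells. Subunits are therefore ranked by TPM within groups only. *Itga5* had 27.5 ± 0.706, 23.3 ± 1.77 and 18.1 ± 1.42 TPM in Tu-primed, Spl-primed and parental cells, without overlap. *Itgb1*, *Itgav* and *Itgb5* were higher in TPM in every Tu-primed than in every parental library. *Itgb5*, called lower in Spl-primed cells, had 34.8 ± 2.10 TPM there and 29.4 ± 2.88 TPM in parental cells. Means of *Itgb3*, *Itga2* and *Itgb7* ordered the groups as in CPM, but Spl-primed and parental *Itgb7* overlapped. The lower calls of *Itga3* and *Itgb4* in CPM had no counterpart in TPM, which lack the TMM scaling between libraries used for CPM. *Itga3* had 491 ± 33.2, 516 ± 50.3 and 465 ± 24.1 TPM in Tu-primed, Spl-primed and parental cells, with overlapping libraries and higher means in the primed groups, and *Itgb4* had 20.2 ± 0.461, 20.7 ± 3.66 and 20.3 ± 0.736 TPM. With effective-length offsets in DESeq2, which keep a scaling between libraries, both stayed lower than in parental cells (*Itga3* -0.41 and -0.28, *Itgb4* -0.51 and -0.42 in Tu-primed and Spl-primed cells).

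**Figure D3:**
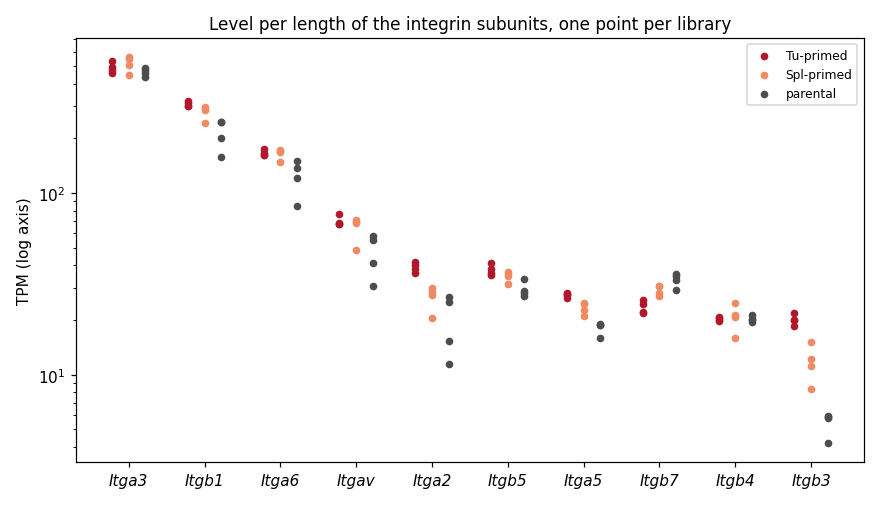
TPM on a log axis (y) of the 10 subunits (x, ordered by their mean in Tu-primed cells), with 1 point per library and color for the group. *Itga3* is highest in every library, and *Itgb3* has the lowest mean in each group, overlapping *Itgb4* in Tu-primed cells and lying below all other subunits in Spl-primed and parental cells.

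The libraries did not deviate evenly. Spl-primed replicate 3 was the lowest of its group for 8 of the 10 subunits, and parental replicates 2 and 4 were each the lowest of theirs for 5. Without Spl-primed replicate 3 the log2 fold change of *Itgb3* was 0.63 between the primed groups (adjusted p = 0.000599) and 0.79 for Spl-primed against parental cells (adjusted p = 1.93e-05). *Itga2* and *Itgb7* were then not called between the primed groups (log2 fold changes 0.31 and -0.24, adjusted p = 0.0587 and 0.0907).

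*Itga3* reads were divided differently among the annotated forms of the gene in primed and parental cells. The main form, Itga3-201, starts at position 95076714 of chromosome 11 and has 26 exons. Itga3-202 has 25 exons and starts at an internal first exon at position 95069198, 7516 bases downstream, inside the first intron of Itga3-201. That exon runs on into the second exon of Itga3-201, and the coding sequence of Itga3-202 is 3066 bases against 3159 for Itga3-201. Reads were not counted on single bases, but the estimated reads assigned to these forms moved in opposite directions. Bases at and before the starts of the forms are therefore shown. The first is the coding start of Itga3-202 that Itga3-201 lacks (GENCODE M21, chr11:95068840-95068952, minus strand), with the start codon in capitals. The others are the bases before the first exon of the gene (RefSeq, GRCm38.p6, chr11:95076802-95076964, minus strand) and before the first exon of Itga3-202 (chr11:95069199-95069448, minus strand), with motif matches in capitals.
Itga3-202 coding start: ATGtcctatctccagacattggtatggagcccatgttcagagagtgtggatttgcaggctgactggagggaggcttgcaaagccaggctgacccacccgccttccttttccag
Itga3 upstream of the gene: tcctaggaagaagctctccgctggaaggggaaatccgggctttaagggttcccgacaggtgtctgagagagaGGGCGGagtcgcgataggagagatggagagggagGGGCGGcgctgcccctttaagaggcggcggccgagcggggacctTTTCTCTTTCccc
Itga3 upstream of Itga3-202: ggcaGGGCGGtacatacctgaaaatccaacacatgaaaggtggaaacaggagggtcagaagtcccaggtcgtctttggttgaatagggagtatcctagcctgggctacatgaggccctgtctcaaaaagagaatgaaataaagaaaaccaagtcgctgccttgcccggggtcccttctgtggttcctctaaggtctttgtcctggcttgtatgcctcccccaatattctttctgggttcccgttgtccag

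The motifs searched on both strands, in the 250 bases before a start, were the GC box GGGCGG, the AP-1 motif TGANTCA, the GAS motif TTCNNNGAA, the interferon-stimulated response element (ISRE) motif and TATAAA. RefSeq promoter entries matched 7 of the 10 genes, with 8 windows. GC boxes were found in 5 of these 8 windows and in 32.7% of all 32817 windows, and the window before Itga3-201 held 3 of them and that before Itga3-202 held 1. The ISRE-type motif was present in 1 of the 8, before Itga3-201, and in 2.97% of all. The other motifs had no match in the 8 windows and were found in 6.75% (AP-1), 7.01% (GAS) and 12.4% (TATAAA) of all windows. Of the 3 GC boxes before Itga3-201, the printed bases hold 2, since the part of the window that overlaps an exon of another *Itga3* form is left out. The ISRE-type match there is read on the opposite strand, and no matches in the printed bases overlap.

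Of the reads of *Itga3*, Itga3-202 held 20.5%, 27.5%, 24.1% and 26.4% in the Tu-primed libraries, 23.2%, 27.6%, 47.1% and 26.03% in the Spl-primed libraries and 8.68%, 13.3%, 14.3% and 7.42% in the parental libraries. Every primed library lay above every parental library, and Spl-primed replicate 3 stood far above the rest of its group. Fitted over the 38164 transcripts that passed the filter, Itga3-202 was higher than in parental cells in Tu-primed (log2 fold change 0.74, standard error 0.24, adjusted p = 0.0365) and Spl-primed cells (1.16, standard error 0.24, adjusted p = 0.00534). Without Spl-primed replicate 3 the latter was 0.93 (adjusted p = 0.0103). The call in Tu-primed cells was lost without any 1 of Tu-primed replicates 2 to 4, Spl-primed replicate 2 or parental replicates 1 and 4 (log2 fold change between 0.61 and 0.91, adjusted p at most 0.0985). Itga3-201 was lower in both, with log2 fold changes of -0.70 in Tu-primed (standard error 0.13, adjusted p = 0.00228) and -0.70 in Spl-primed cells (standard error 0.13, adjusted p = 0.00315). The forms share most of their exons, so reads outside the first exons were divided between them by the authors' quantification. The retained-intron forms Itga3-204 and Itga3-205 had between 33.4 and 134 estimated reads in each primed library and between 0 and 9.95 in each parental library, and both were called higher in both primed groups. Forms this low in parental cells can pass the filter through primed libraries alone, which can lean such calls upward. Over the whole library, retained-intron and nonsense-mediated decay transcripts, by their annotation, held between 5.64% and 5.83% of reads in Tu-primed, between 5.37% and 6.13% in Spl-primed and between 3.93% and 4.35% in parental cells, with the highest share in Spl-primed replicate 3. Their part in the result was not tested.

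**Figure D4:**
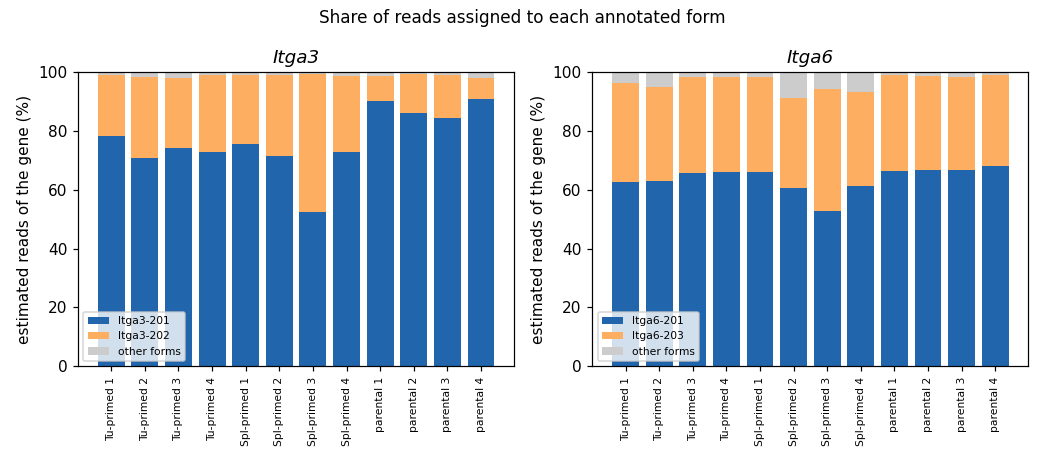
Share of the estimated reads of *Itga3* (left) and *Itga6* (right) assigned to annotated forms, in percent (y axis), with 1 bar per library. Itga3-202 takes between 7.42% and 14.3% in parental libraries and between 20.5% and 47.1% in primed libraries, whereas Itga6-203 stays between 30.6% and 41.4%.

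The α3 and α6 subunits each exist with alternative cytoplasmic tails, A and B, which differ by the use of a tail exon. The coding part of the A exon of each is shown because most coding reads of both genes fell on forms that include it. The α3 exon lies at chr11:95046483-95046590 (minus strand, 108 bases) and the α6 exon at chr2:71853534-71853638 (plus strand, 105 bases), both from GENCODE M21 on GRCm38.
Itga3 tail exon A: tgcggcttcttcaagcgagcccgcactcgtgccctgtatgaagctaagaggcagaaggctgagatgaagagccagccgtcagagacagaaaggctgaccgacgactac
Itga6 tail exon A: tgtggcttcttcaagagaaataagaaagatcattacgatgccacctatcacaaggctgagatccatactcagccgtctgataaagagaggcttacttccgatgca

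Itga3-203, the form without this exon, held between 0.218% and 1.16% of *Itga3* reads in the 12 libraries. Itga6-202, the corresponding form of *Itga6*, had no reads in any parental library, in Tu-primed replicates 3 and 4 or in Spl-primed replicate 1, and at most 7% of the gene's reads, in Spl-primed replicate 2. The A form Itga6-201 held between 52.8% and 68.1% of *Itga6* reads. Most of the others were on Itga6-203, a form of 3 exons with no annotated coding sequence and a last exon of 2563 bases. It held 32.6% ± 0.851, 34.0% (30.6% to 41.4%) and 31.6% ± 0.716 of the reads in Tu-primed, Spl-primed and parental cells, and was highest in Spl-primed replicate 3 with 41.4%.

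Of the 28 transcripts of the 10 genes that were tested, Itgb3-201 was higher in Tu-primed than in Spl-primed cells and none was lower (background 0.495% and 0.0707%), and its call was lost in 8 of the 12 fits that left out a library (adjusted p at most 0.121), namely without any 1 of the 4 Tu-primed libraries, of Spl-primed replicates 1 and 2 or of parental replicates 1 and 2. Against parental cells, 5 were higher and 4 lower in Tu-primed cells (background 18.0% and 13.3%). The higher were Itga2-201, Itga3-202, Itga3-204, Itga3-205 and Itgb3-201, and the lower Itga3-201, Itgb4-202, Itgb5-207 and Itgb7-201. In Spl-primed cells 4 were higher and 4 lower (background 14.9% and 11.4%). They differed from the former list in that Itga2-201 was not called and Itgb5-202 was called lower in place of Itgb5-207. Itga3-204 and Itga3-205, low in parental cells, can pass the filter through primed libraries alone, which can lean the higher counts upward. With at least 10 counts in every library, 3 transcripts were higher in Tu-primed and 2 in Spl-primed than in parental cells.

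Of 17 other integrin subunits on the gene lists, 8 passed the filter. Of these, 5 were called higher and 0 lower in Tu-primed than in parental cells (background 31.2% and 28.0%, median 0.78). In Spl-primed cells 6 were higher and 1 lower (background 25.7% and 22.5%, median 0.80). A gene low in parental cells can pass the filter through primed libraries alone, which can lean these counts and medians upward. *Itga2b* and *Itga4* had at most 11 reads in each parental library. *Itga7* was the only gene of the 8 called between the primed groups. *Itga7*, a laminin-binding α subunit best known from muscle, had 40.5, 42.3, 39.4 and 34.6 CPM in Tu-primed, 30.7, 33.4, 30.1 and 31.97 CPM in Spl-primed and 19.8, 19.0, 17.7 and 18.6 CPM in parental libraries. The groups did not overlap, in the same order as for *Itgb3*. Relative to parental cells, its log2 fold change came to 1.06 (standard error 0.07, adjusted p = 9.18e-08) and 0.75 (standard error 0.07, adjusted p = 2.26e-06), and it was 0.31 (standard error 0.07, adjusted p = 0.00854) between the primed groups. *Itga1*, which encodes another collagen-binding partner of β1 and lies 20995 bases from *Itga2* on chromosome 13, had 46.4 ± 4.27, 43.9 ± 8.59 and 55.3 ± 3.08 CPM in Tu-primed, Spl-primed and parental cells. It was lower in Spl-primed than in parental cells (log2 fold change -0.33, standard error 0.12, adjusted p = 0.0311), a call lost without parental replicate 1 or 2 (adjusted p at most 0.0712), and -0.22 without Spl-primed replicate 3. *Itga2b*, the platelet partner of β3, had 0.975 ± 0.181, 0.664 ± 0.233 and 0.250 ± 0.147 CPM, and was called higher in both primed groups (log2 fold changes 1.97 and 1.41), but not when only protein-coding transcripts were counted. *Itgb8*, another αv partner, had 1.69 ± 0.168, 1.82 ± 0.461 and 0.993 ± 0.288 CPM and was called higher in both (0.76 and 0.86). *Itga10*, a collagen-binding α subunit, had 1.13 ± 0.312, 1.68 ± 0.338 and 0.644 ± 0.251 CPM, with log2 fold changes of 0.80 and 1.37. Its call in Tu-primed cells was lost without Tu-primed replicate 1 or 2 or parental replicate 3 or 4 (adjusted p at most 0.110). *Itga4* was called higher in Spl-primed cells (1.04, adjusted p = 0.0308), which did not hold without Spl-primed replicate 2 or 4 or parental replicate 1, 2 or 4 (adjusted p at most 0.108). *Itga8* was not called in any comparison.

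**Figure D5:**
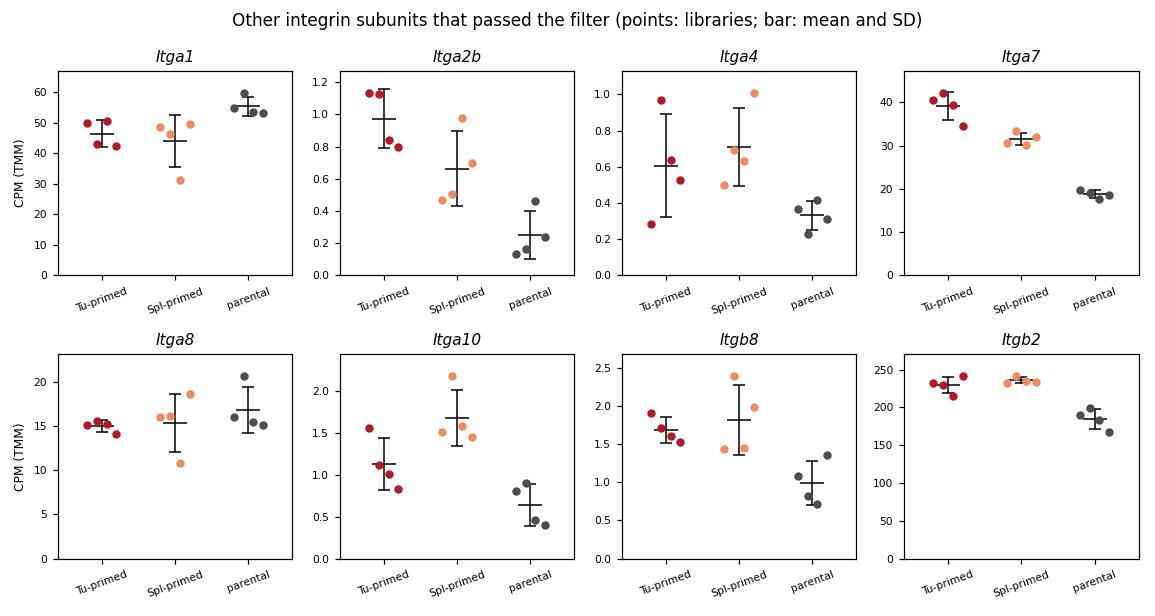
TMM-scaled CPM of the 8 other integrin subunits that passed the filter, with 1 point per library and the mean and SD of each group of 4. *Itga7* has 3 separate groups, and the primed libraries of *Itgb2* lie between 216 and 242 CPM, above the parental libraries at 167 to 199 CPM.

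*Itgb2*, the β subunit of leukocyte integrins, was the most abundant of these genes. It had 232, 229, 216 and 242 CPM in Tu-primed, 232, 241, 235 and 234 CPM in Spl-primed and 190, 199, 183 and 167 CPM in parental libraries. The primed groups overlapped and both lay above the parental libraries, with log2 fold changes of 0.31 (standard error 0.06, adjusted p = 0.000330) and 0.35 (standard error 0.06, adjusted p = 0.000247). None of its α partners on the list was found at comparable levels. *Itgam*, which encodes CD11b, had between 0 and 6 reads per library. The 6 leukocyte subunits other than *Itgb2*, *Itgam* among them, together had at most 0.350 CPM in Tu-primed, 0.291 CPM in Spl-primed and 0.329 CPM in parental libraries. Over the 24 granulocyte and myeloid markers that were at or under 1 CPM in all parental libraries, the summed level was between 1.81 and 3.15 CPM in Tu-primed, between 2.05 and 2.51 CPM in Spl-primed and between 1.34 and 2.17 CPM in parental libraries. Over all 30 markers, *Itgb2* included, it was between 389 and 448, 381 and 407, and 312 and 344 CPM. Of the 9 markers that passed the filter, 2 were higher in Tu-primed than Spl-primed cells, 5 were higher and 1 lower in Tu-primed than parental cells, and 1 was higher in Spl-primed than parental cells (medians 0.23, 0.37 and 0.06). The 2 were *Ltf* (log2 fold change 1.16, adjusted p = 0.000820) and *S100a8* (0.93, adjusted p = 0.0270) in edgeR's quasi-likelihood test. *Itgb2* itself, *Ltf* (1.21) and *Mmp9* (0.37) were among the 5, and *Clec4d* (-0.83) was the 1 lower. The 1 marker higher in Spl-primed than parental cells was also *Itgb2*, so these counts are not separate from the result on that gene. The part of these markers in the results on integrins was not tested.

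Genes for the matrix proteins that integrins bind went both ways. On the list of RGD-type and other ligands, 11 of 17 genes were tested, and each primed group had 5 higher and 2 lower genes relative to parental cells (medians 0.26 and 0.36). *Spp1*, which encodes osteopontin, a ligand of αvβ3, had 3509 ± 41.3 CPM in Tu-primed, 3209 ± 94.0 CPM in Spl-primed and 2317 ± 130 CPM in parental cells, with log2 fold changes of 0.60 and 0.47 against parental cells. *Tnc*, which encodes tenascin C, had 22.9 ± 1.67, 17.6 ± 1.84 and 13.0 ± 1.31 CPM and was called in all 3 comparisons (0.81 and 0.43 against parental cells, 0.38 between the primed groups with adjusted p = 0.0184). The call between the primed groups was lost without Tu-primed replicate 3 (adjusted p = 0.0690). *Ibsp*, which encodes bone sialoprotein, another αvβ3 ligand, was low in all groups (1.52 ± 0.600, 0.515 ± 0.169 and 0.188 ± 0.0992 CPM), with log2 fold changes of 3.00 in Tu-primed and 1.45 in Spl-primed against parental cells and 1.55 between the primed groups (adjusted p = 0.0107). A gene this low can pass the filter through the Tu-primed libraries alone, which can lean its calls and the higher counts and medians of the list upward. *Mfge8*, which encodes the αv ligand lactadherin, was below its parental level after either priming (-0.50 and -0.29), as was *Tgfb1* (-0.72 and -0.61), whose latent form binds αv integrins. *Mfge8* was also called lower in Tu-primed than in Spl-primed cells (-0.22, adjusted p = 0.0448), a call lost in 8 of the 12 fits without 1 library (adjusted p at most 0.158), namely without any 1 of Tu-primed replicates 1 to 3, Spl-primed replicates 1 to 3 or parental replicates 1 and 3.

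Among laminin and basement membrane genes, 10 of 14 were tested, with 2 higher and 2 lower in Tu-primed and 3 higher and 2 lower in Spl-primed cells (medians -0.00 and 0.06). *Lamb2*, the laminin β2 chain, was higher in both (0.91 and 0.68), with 44.2 ± 1.27, 37.6 ± 5.66 and 23.5 ± 1.55 CPM. *Lamc1*, the laminin γ1 chain, was lower in both (-0.31 and -0.27). Of 5 tested collagen genes, the basement membrane genes *Col4a1* (-0.29 and -0.26) and *Col4a2* (-0.59 and -0.47) were lower in both primed groups and none was higher. None of the laminin or collagen genes was called between the primed groups. Among hemidesmosome partners, 8 of 9 were tested, with 1 higher and 2 lower in Tu-primed and 0 higher and 2 lower in Spl-primed cells (medians -0.01 and -0.08). *Plec*, which encodes plectin, the cytoskeletal linker bound by β4, was lower in both primed groups (-0.83 and -0.77), from 456 ± 84.0 CPM in parental to 257 ± 11.997 CPM in Tu-primed and 268 ± 45.6 CPM in Spl-primed cells. *Cd151*, the tetraspanin that associates with α3β1 and α6β4, was lower by a smaller amount (-0.24 and -0.22).

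Inside the cell, 22 of 25 genes for tail-binding activators and adaptors were tested. Relative to parental cells, Tu-primed cells had 2 higher and 10 lower, and Spl-primed cells 3 higher and 11 lower (medians -0.17 and -0.15), and none was called between the primed groups. *Actn1*, which encodes α-actinin 1, was lower in both (-0.42 and -0.40, from 731 ± 72.6 CPM in parental cells), as was *Tln1*, which encodes talin 1 (-0.66 and -0.65), with 712 ± 108 CPM in parental, 450 ± 9.05 CPM in Tu-primed and 454 ± 62.2 CPM in Spl-primed cells. *Fermt2*, which encodes the β tail activator kindlin 2, was higher in both (0.32 and 0.23), as was *Lims1*, which encodes PINCH1 (0.39 and 0.35). All 4 genes on the list of tail-binding inhibitors were tested. In each primed group 2 were higher (*Krit1* and *Sharpin*) and 1 lower (*Itgb1bp1*). *Krit1* is on the list though its product acts against an inhibitor, so these counts do not show a rise in inhibitors. *Krit1*, whose product takes the inhibitor ICAP1 off the β1 tail, rose from 35.2 ± 5.55 CPM in parental to 65.4 ± 3.61 CPM in Tu-primed and 65.6 ± 2.599 CPM in Spl-primed cells (log2 fold changes 0.89 and 0.90). *Itgb1bp1*, which encodes ICAP1 itself, was lower (-0.61 and -0.40). *Sharpin* was higher (0.41 and 0.44), but not when only protein-coding transcripts were counted, where the values were -0.07 and -0.02.

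Of 21 focal adhesion kinases and docking proteins, all tested, 5 were higher and 7 lower in Tu-primed cells and 3 higher and 6 lower in Spl-primed cells (medians -0.02 and -0.03). *Yes1*, a Src family kinase, was higher (0.50 and 0.45), and *Csk*, the kinase that restrains that family, was lower (-0.50 and -0.31). *Lyn*, another Src family kinase, was lower in Tu-primed than Spl-primed cells (-0.27, adjusted p = 0.0130), a call lost without Tu-primed replicate 3 (adjusted p = 0.0555), and *Fyn* was higher (0.22, adjusted p = 0.0295). The call of *Fyn* was lost in 6 of the 12 fits that left out a library, with an adjusted p of at most 0.0934. Among lateral membrane partners, 12 of 13 were tested, with 2 higher and 5 lower in Tu-primed and 2 higher and 4 lower in Spl-primed cells (medians -0.05 and -0.10). The tetraspanin gene *Cd9* was higher in both (0.49 and 0.46, from 325 ± 28.8 CPM in parental cells), and *Cd47*, whose product associates with αvβ3, in Tu-primed cells (0.54). Of 8 tested counter-receptors on cells, 3 were higher and 4 lower in Tu-primed and 2 higher and 0 lower in Spl-primed cells (medians -0.27 and -0.11), with *Adam9* higher in both (0.66 and 0.45). *Vcam1*, which encodes a ligand of α4 integrins, was the 1 gene of this list called between the primed groups (-0.19, adjusted p = 0.0401). That call was lost without any 1 of Tu-primed replicates 1 to 3, the 4 Spl-primed libraries or parental replicate 3 (adjusted p at most 0.131). Of the 10 mammary carcinoma markers, 1 was higher and 6 lower in Tu-primed and 2 higher and 4 lower in Spl-primed cells (medians -0.35 and -0.25). The lower ones included *Krt8* (-0.78 and -0.48), and the part of these markers in the results on integrins was not tested. All log2 fold changes and calls on these lists come from the same fit of edgeR's quasi-likelihood test, and the percentages called over all genes given above apply to them.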

How the data were processed

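Per the labels, RNA was prepared with a stranded TruSeq kit, and the submitters' processing notes name FastQC, Trimmomatic 0.39 and Salmon 1.4.0, with GRCm38 (mm10). For each of 12 libraries the authors deposited estimated counts per Ensembl transcript (expected counts, not normalized), TPM scaled by their quantification for length and library size, and effective lengths. The normalized gene-level signal values, also deposited, were used in 1 alternative. Estimated counts were summed per gene with GENCODE M21 and rounded. Transcripts outside that annotation held at most 0.419% of reads. Tests used edgeR 4.0.16 under R 4.3.3 (filterByExpr, TMM factors from 0.88 to 1.05, quasi-likelihood test in 1 fit of the 12 libraries, Benjamini-Hochberg adjustment per comparison), and transcripts in the same way. Standard errors are the log2 fold change over the root of F. limma 3.58.1 and DESeq2 1.42.0 served as alternatives, and tables and figures were made in Python 3.11.15. The scripts were tested on simulated data. The members and lists were chosen with earlier results of these data known. All 10 members were named, with other integrins that passed the filter and, per list, comparison and direction, up to 3 called genes with the smallest p, of which some are given here. Rounded estimates, with a count of 0 allowing up to 3 counts, cover counting error only. No 2 libraries of a group agreed within sampling noise.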

Additional observations from a re-analysis of the deposited data

Results flagged for a closer look

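The difference between the effects of tumor-derived and spleen-derived Gr1+ cells was itself tested by the comparison of the primed groups, and it passed the threshold of edgeR's quasi-likelihood test for 3 higher and 1 lower of the 18 integrin subunits tested, beside 4.66% higher and 2.97% lower of all genes. The members and lists were chosen with earlier results of these data known, so these counts cannot show an excess over all genes. Relative to Spl-primed cells, the log2 change in Tu-primed cells was 0.73 for *Itgb3*, 0.37 for *Itga2*, -0.29 for *Itgb7* and 0.31 for *Itga7*. The calls of *Itga2* and *Itgb7* were lost with the replicate block (adjusted p = 0.0616 and 0.0648), without any 1 of 9 libraries for *Itga2* and without any 1 of 6 for *Itgb7*. In *Itga8*, which is no member, parental replicate 2 had 20.6 CPM and the other parental libraries between 15.1 and 16.01 CPM, the only library that stood apart by Dixon's criterion in 57 groups of 4 examined. Chance marks about 1 group in 20.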

How the results depend on the processing

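Without 1 library at a time, the count of the 10 subunits called between the primed groups was 1 to 2 higher and 0 to 1 lower. Against parental cells it stayed at 2 higher and 3 lower in Tu-primed cells, and was 1 to 2 higher and 3 to 4 lower in Spl-primed cells. Between the primed groups, 1 was higher and 0 lower at an adjusted p under 0.01 and with limma-trend on the authors' normalized values. The count higher in Spl-primed than in parental cells was 2 with upper-quartile factors. Without 1 library, 0 to 1 transcripts were higher in Tu-primed than Spl-primed cells. Against parental cells and without 1 library, 4 to 5 transcripts were higher in Tu-primed and 4 to 5 in Spl-primed cells. The count lower ran from 4 to 6 in Tu-primed and from 4 to 7 in Spl-primed cells, with 7 without parental replicate 2. With at least 10 counts in every library, 3 transcripts were higher in Tu-primed and 2 in Spl-primed than in parental cells. The cause was not tested.

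The replicate numbers did not clearly pair the samples (correlations of same-numbered libraries from -0.164 to 0.148), and no criterion for pairing was set. Between Tu-primed and parental cells the same-numbered correlations were all positive (0.0839 to 0.148), beside -0.224 to 0.140 for other pairs. They were -0.164 to 0.0164 between the primed groups and -0.156 to 0.0721 between Spl-primed and parental cells. With the replicate block, 1 subunit was higher (*Itgb3*), 0 were lower and 0 transcripts were higher between the primed groups (*Itga2* 0.37, adjusted p = 0.0616, and *Itgb7* -0.29, adjusted p = 0.0648), and *Itga6* was 0.00037 in Spl-primed against parental cells. Of the other genes named by the rule, *Mfge8*, *Vcam1* and *Fyn* between the primed groups, *Npnt* and *F11r* in Spl-primed and *Clec4d* in Tu-primed cells lost their call with the block, and no other call changed.

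Subunits that were not called changed sign near 0. For *Itga6* between the primed groups the log2 fold change was -0.0443 with DESeq2 and effective lengths and -0.0241 with limma-trend, and -0.0403 to 0.0413 without 1 library. For *Itga6* in Tu-primed against parental cells it was -0.0139 with RLE factors and -0.0139 with DESeq2, -0.0051 with no filter, -0.00062 in the 8 libraries compared, -0.0350 with effective lengths and -0.0501 with limma-trend, and -0.0901 to 0.0605 without 1 library. In Spl-primed cells *Itga6* was 0.0190 with upper-quartile factors, 0.00073 with limma-voom, 0.0088 with at least 10 counts and 0.0093 with effective lengths, and -0.0955 to 0.0552 without 1 library. In Spl-primed cells *Itgb1* was -0.0103 with RLE factors and -0.0103 with DESeq2, -0.0088 with no filter, -0.0240 with effective lengths and -0.0243 with limma-trend, and -0.0483 to 0.0505 without 1 library. *Itga5* was 0.0051 in Spl-primed cells with protein-coding transcripts only, and without 1 library -0.0823 to 0.0015 there and -0.0064 to 0.0774 in Tu-primed cells. *Itgav* without 1 library was -0.0080 to 0.12 between the primed groups and -0.0260 to 0.153 in Spl-primed cells. With protein-coding transcripts only, *Sharpin* was -0.0742 in Tu-primed and -0.0165 in Spl-primed cells.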
